A study of Mus musculus with 4 samples.

Results

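The genes described here are annotated microRNA genes that had reads in mouse embryonic fibroblasts (MEFs). Of 2207 genes with the microRNA biotype among the 55487 genes counted, 274 had at least 1 count and 108 had at least 5 counts summed over 4 libraries, and these 108 are described. MEFs are primary fibroblasts grown from mouse embryos, here wild-type cells from C57BL/6J embryos, which the labels place at passage 2 and the study's text at passage 3. Control MEFs were left untreated, and PEDF-treated MEFs received pigment epithelium-derived factor, a secreted protein of the serpin family, at 100 ng/mL for 24 h. There were 2 control and 2 PEDF libraries. Each of 2 experiments gave 1 control and 1 PEDF library and used its own embryos, so control 1 and PEDF 1 share a cell preparation, as do control 2 and PEDF 2. The genes were selected on these summed counts, which are therefore a description and no finding. There were 11 genes with exactly 5 counts, which were kept, and 18 with 4 counts, which were not.

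A microRNA is made from a long primary transcript, usually capped and polyadenylated, in which a hairpin is cut out by Drosha in the nucleus and trimmed by Dicer to a short duplex. One strand of the duplex is loaded into an Argonaute protein and pairs through its seed, the bases near its 5-prime end, with target messenger RNAs. Many hairpins lie in introns or exons of longer host genes, and imprinted clusters such as the Dlk1-Dio3 region hold many of them. The libraries were made from polyadenylated RNA, so a count on a hairpin gene is a read that overlaps the hairpin model and not a measurement of the mature microRNA. Which transcript such a read came from was not tested.

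The mature strands below show what the hairpins with counts encode, with the seed (bases 2 to 8) in capitals. They were taken from RefSeq on GRCm38.p6, in which 51 of the 108 genes matched a mature sequence by symbol. The first set belongs to the Dlk1-Dio3 region, with both strands of miR-127 and 1 strand of each neighbor.
miR-127-5p: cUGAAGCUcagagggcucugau
miR-127-3p: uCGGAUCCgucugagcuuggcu
miR-433-3p: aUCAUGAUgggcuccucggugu
miR-434-3p: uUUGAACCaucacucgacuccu
miR-541-5p: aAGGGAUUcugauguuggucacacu
miR-409-3p: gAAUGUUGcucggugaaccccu
miR-369-3p: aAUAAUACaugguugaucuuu
miR-3072-3p: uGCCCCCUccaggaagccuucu
The second set holds the Mir-named hairpin with the most counts, the X-linked cluster and the genes that share a seed.
miR-762: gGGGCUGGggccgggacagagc
miR-322-5p: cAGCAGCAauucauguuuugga
miR-503-5p: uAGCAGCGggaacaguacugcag
miR-351-5p: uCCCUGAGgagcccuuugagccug
miR-130c: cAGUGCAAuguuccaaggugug
miR-130b-3p: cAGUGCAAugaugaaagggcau
miR-3074-5p: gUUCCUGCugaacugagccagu
Among the 80 mature strands of these genes there were 78 different seeds, and 2 seeds occurred in more than 1 gene. Mir130b and Mir130c share AGUGCAA, and Mir3074-1 and Mir3074-2, which encode the same miR-3074-5p, share UUCCUGC. miR-322-5p and miR-503-5p agree in the first 6 bases of the seed and differ in the last.

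The libraries held 14722848 and 18144640 counts in control MEFs and 15361948 and 17787193 counts in PEDF-treated MEFs, in the order of the experiments. All 8 fibroblast markers examined, among them Col1a1 and Vim, were above 1 TPM (abundance per gene length, scaled to 1000000 per library) in every library, and their summed level was 12985 to 17313 TPM. Summed levels were 43.4 to 51.2 TPM for 4 macrophage markers, 5.92 to 6.24 TPM for 4 endothelial markers, 23.3 to 38.5 TPM for 4 epithelial markers and 294 to 376 TPM for 4 skeletal muscle markers, and no marker was at 0 in all libraries. Between PEDF and control of the same experiment, the fibroblast sum went from 14434 to 12985 TPM and from 17313 to 14771 TPM, and the skeletal muscle sum from 294 to 323 TPM and from 333 to 376 TPM. The skeletal muscle and fibroblast sums were also higher in experiment 2 than in experiment 1 in both groups. The part of these marker levels in any result below was not tested. In bulk RNA, a change in the number of cells of a type and a change in RNA per cell cannot be told apart.

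The 108 genes took 20757, 23622, 23859 and 18183 counts in control 1, control 2, PEDF 1 and PEDF 2. These are 0.141%, 0.130%, 0.155% and 0.102% of the libraries. Because the genes are short, 54 to 144 bases, the same reads made up 6.20%, 5.99%, 6.57% and 4.41% of the TPM, a unit that divides by gene length. The counts were very unequal. A single gene model, Gm23935, held 71.1% of all of them, and the 12 genes with the most counts held 95.2%. The median gene had 15 counts over 4 libraries, 67 genes had 20 or fewer, and 24 had more than 100. By name, 48 of the 108 were predicted models with a Gm symbol, 59 had a Mir symbol and 1 was Snord43, a small nucleolar RNA gene listed with the microRNA biotype. The 59 Mir genes together had 3599 counts.

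The hairpins with reads were placed by the GENCODE M21 annotation, whose coordinates matched those of 2202 of the 2207 microRNA genes. In that annotation, 61 of the 108 overlapped an exon of another gene on the opposite strand, 23 lay in an intron of a gene on the same strand, 13 overlapped no other gene, 7 lay in an intron of a gene on the opposite strand and 4 overlapped an exon on the same strand. Among all annotated microRNA genes, 164 overlap an exon on the opposite strand, of which 37.2% had at least 5 counts. The share was 0.941% of the 425 genes over an exon on the same strand, 3.01% of the 764 in a same-strand intron, 3.27% of the 214 in an opposite-strand intron and 2.03% of the 640 outside other genes.

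**Figure D1:**
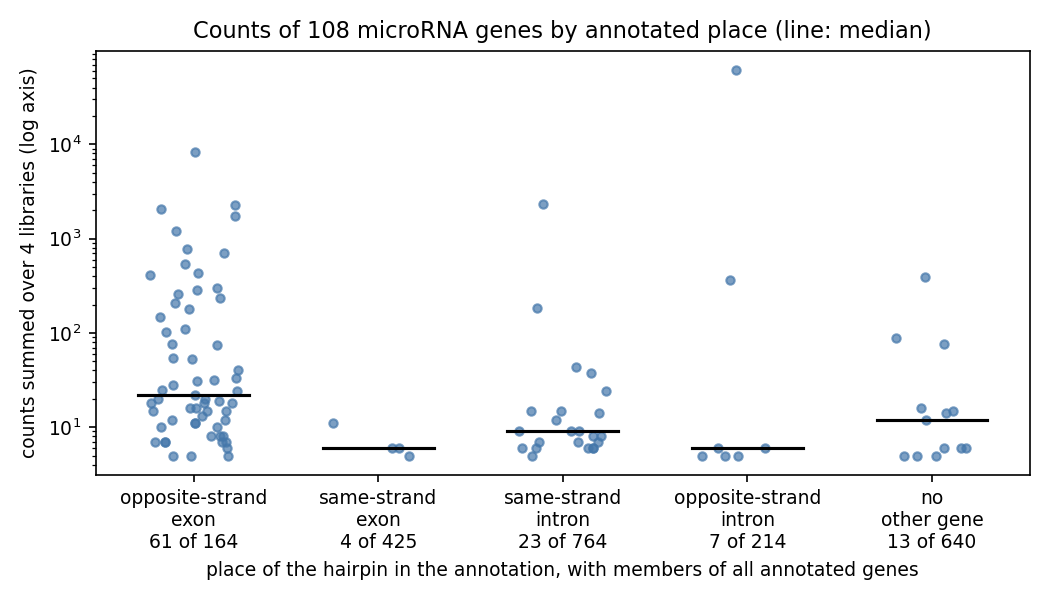
Counts summed over 4 libraries (log axis) for each of the 108 microRNA genes, by the place of the hairpin in the annotation, with the number of genes shown out of all annotated microRNA genes of that place; the line is the median. The 61 genes over an exon on the opposite strand had a median of 22 counts, and the point at 61448 counts is Gm23935.

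The strand of the surrounding exon separated hairpins with reads from hairpins without them. Of 126 microRNA genes wholly inside a same-strand exon of a gene with at least 1000 counts, 0 had a count, which allows a share of up to 2.38% of such genes. Of 25 microRNA genes wholly inside an opposite-strand exon of such a gene, 23 had counts, with a median of 206. Other short genes (at most 400 bases) split in the same way, with counts in 1 of 143 inside same-strand exons and in 31 of 39 inside opposite-strand exons. The libraries were directional, the strand setting of the counting is not given in the sources used here, and how reads shared by a hairpin and its exon were assigned was not tested. A value of 0 for a hairpin inside a same-strand exon therefore says nothing of its transcript, and reads of a hairpin and of a gene on the other strand cannot be told apart beyond what the counts show.

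This placement covers many microRNAs known from fibroblasts. Of a list of 41 fibroblast and mesenchymal microRNA genes, 28 were listed at 0, and 20 of these 28 lie in a same-strand exon. They include Mir21a, which is induced by growth and stress signals and overlaps an exon of Vmp1 (10732 counts in all), Mir22 in Mir22hg (1404 counts) and Mir214 and Mir199a-2 in Dnm3os (11428 counts), a noncoding RNA of mesenchymal tissue. Of 26 senescence-linked microRNA genes, 24 were listed at 0 and 15 of these lie in a same-strand exon, among them Mir17, Mir18, Mir19a, Mir20a and Mir92-1 of the proliferation-associated cluster in Mir17hg (352 counts). The remaining 2 were Mir127, with 10 counts, and Mir34b, a p53 target gene, with 1 count. Some of the genes with these same-strand exons had few counts themselves, with 0 for the gene over Mir29b-1, 13 for the gene over Mir29b-2 and Mir29c, and 39 for Mir155hg.

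Inside opposite-strand exons, most hairpins described here had fewer counts than the longer gene but often the higher TPM. Of 49 microRNA genes wholly inside such an exon of a gene with at least 100 counts, 43 had counts and 38 had at least 5. These 38 are described, so the shares and ratios below leave out hairpins with fewer counts. In them, the hairpin had a median of 5.51% of the counts of the longer gene. Per length the order turned round. The TPM of the hairpin was above that of the gene on the other strand for 32 of 38, with a median ratio of 2.94 and a range of 0.0496 to 27.7. TPM divides by gene length, and the part of the short hairpin lengths in these ratios was not tested. Across these 38 genes the summed counts of the hairpin and of the longer gene had a Pearson r of 0.612 on the log2 scale and a Spearman rho of 0.635. These are given as a description, since each pair of values shares its libraries and its locus and genes are not independent replicates. For Mir127 the TPM ratio to Rtl1 was 3.70, and 23 of the 38 genes had a lower ratio. For the 23 hairpins in same-strand introns the hairpin had a median of 0.219% of the host counts and a median TPM ratio of 0.22.

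**Figure D2:**
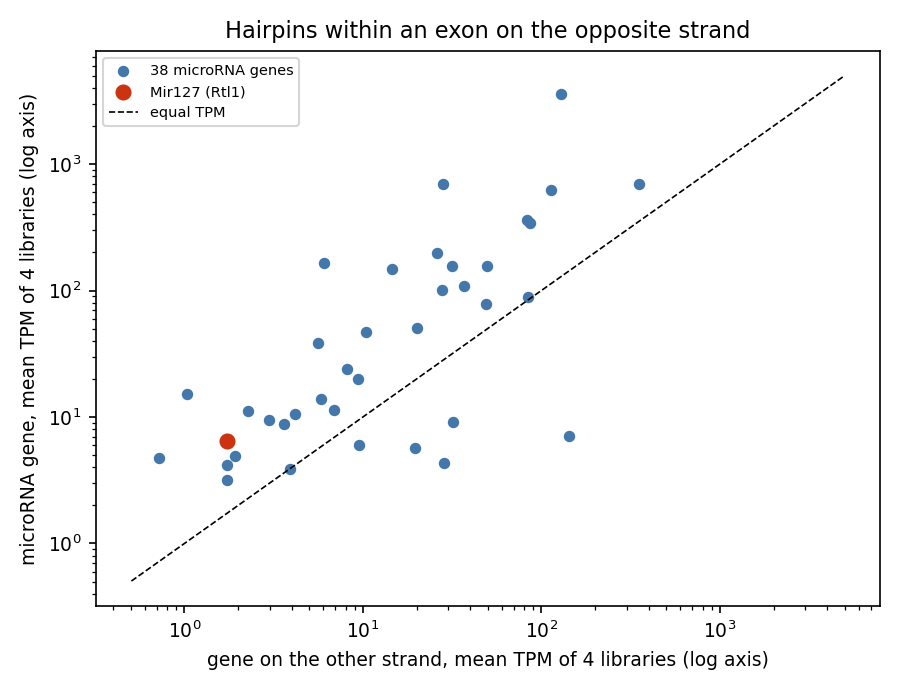
Mean TPM of 4 libraries for each of 38 microRNA genes with at least 5 counts wholly inside an opposite-strand exon of a gene with at least 100 counts, against the mean TPM of that gene (both axes log). The dashed line marks equal TPM, 32 of the 38 points lie above it, and Mir127 with Rtl1 is drawn in red.

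Most of the opposite-strand hairpins lay across protein-coding sequence. Of the 61, 29 were wholly within coding sequence of the gene on the other strand, 6 crossed coding sequence and an untranslated region, 7 were partly exonic over coding sequence, 6 lay within a 3-prime and 4 within a 5-prime untranslated region, and 6 overlapped a gene that does not code for protein. Of the remaining 3, 1 lay within other untranslated sequence. The other 2 overlapped an exon without coding sequence, with 4.065% and 0% of their bases in untranslated sequence. The 6 that crossed coding and untranslated sequence had a median of 821 counts, against 32 for the 29 in coding sequence and 67 for the 6 in a 3-prime untranslated region.

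Gm22953 (ENSMUSG00000080374, chr2:121450670-121450770, minus strand) had the most counts of this kind. It lies across coding and untranslated sequence of Serf2, a small protein that modifies amyloid aggregation, and had 1815, 2014, 2341 and 2144 counts in control 1, control 2, PEDF 1 and PEDF 2. Scaled to 1000000 counts per library after the library totals were adjusted by TMM factors of 0.983 to 1.01 (CPM), these were 123, 113, 151 and 120 CPM. The groups overlapped, as PEDF 2 was below control 1. Mir762 (chr7:127708487-127708562, plus strand), across the coding sequence and an untranslated region of Bcl7c, a subunit of the SWI/SNF chromatin remodeling complex, was the Mir-named gene with the most counts, 298, 280, 342 and 293. The others among the 12 genes with the most counts were Gm24157 over Ppp2ca, the catalytic subunit of protein phosphatase 2A, Gm28033 over Ppp1r18, Gm22721 over Mex3d, Mir6340 over Rab22a, Gm25238 over Cacul1, Gm24270 in an intron of Peak1, and models over histone genes. Those over opposite-strand exons, Gm22953 and Mir762 apart, ranged from 407 (Gm25238) to 2287 counts (Gm44335).

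Histone H2A genes accounted for 10 of the 108. These are Gm models of 138 to 144 bases that lie on the strand opposite the coding sequence of an H2A gene, and together they had 2401 counts in control and 2561 in PEDF libraries. Gm44335, opposite H2ax, the H2A variant phosphorylated at DNA breaks, had 512, 599, 611 and 565 counts, beside 2422, 2823, 2906 and 3154 for H2ax. Gm44364, opposite H2aj, had 491, 500, 485 and 568. Gm44313, opposite H2aw, had 107, 139, 138 and 152, more than the 304 counts of H2aw in all. The other 7 lie opposite the replication-dependent H2A genes of the chromosome 13 cluster and had 5 to 20 counts each. Among these, Gm44297 stood out, with 14, 0, 1 and 0 counts beside 16, 4, 2 and 0 counts for H2ac10 on the other strand, so that both were concentrated in control 1. Of the 10 models, 6 hold the same run of 138 bases in the GENCODE M21 transcripts, so the counts of these single models are uncertain. The longest run that Gm44335, Gm44364 and Gm44313 share with another of the 10 is 88, 53 and 91 bases, and how reads of shared sequence were assigned was not tested.

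Gm23935 (ENSMUSG00000076258, chr16:11144125-11144181, plus strand) belongs to a family of models of 57 bases. Gm24270 on chromosome 9 and Gm24245 on chromosome 4 have the same sequence in the GENCODE M21 transcripts, and Gm24187 on chromosome 13 differs from Gm23935 at 1 base, G11A, counted from the first base of the model. Bases 1 to 25 are shown with position 11 in capitals, to show how little separates models that differ so much in counts.
Gm23935: cgtcgggaccGgggtccggtgcgga
Gm24187: cgtcgggaccAgggtccggtgcgga
Gm23935 had 15143, 17189, 17216 and 11900 counts. Gm24270 had 572, 638, 686 and 453, and Gm24187 had 81, 111, 122 and 77. Gm24245 had 0. In all 3 models with reads, PEDF 1 was the highest library in CPM and PEDF 2 the lowest, so they moved together across libraries and in opposite directions in the 2 experiments. The log2 ratio of PEDF to control was 0.11, 0.19 and 0.52 for Gm23935, Gm24270 and Gm24187 in experiment 1 and -0.53, -0.49 and -0.53 in experiment 2. As the copies are identical or nearly so, their shares of the reads are uncertain.

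**Figure D3:**
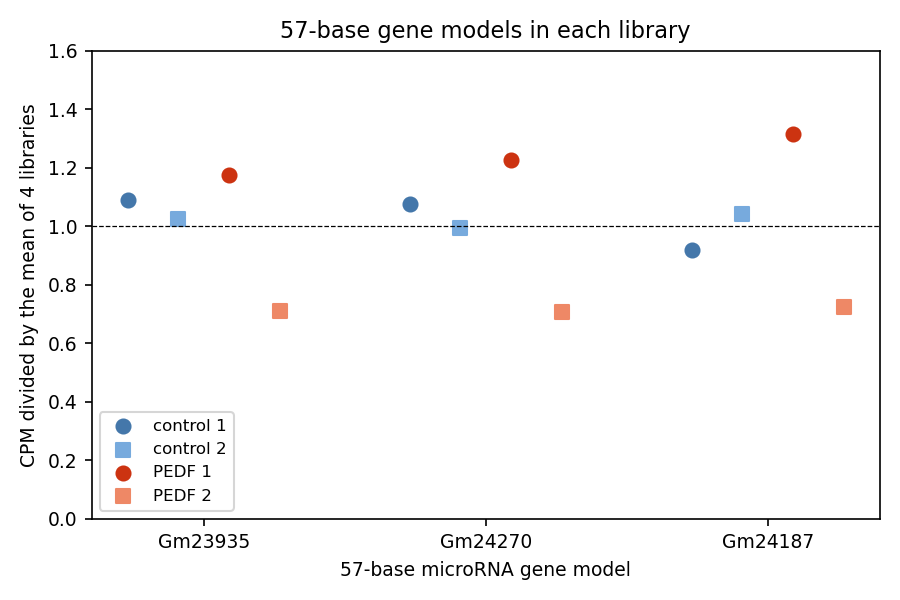
CPM of each library divided by the mean of the 4 libraries for 3 models of 57 bases with identical or near-identical sequence (circles: experiment 1, squares: experiment 2, blue: control, red: PEDF). In all 3 models PEDF 1 is the highest and PEDF 2 the lowest point.

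PEDF-treated and control MEFs were then compared, to see whether the microRNA genes were higher or lower with PEDF and how Mir127 stands among them. Of the counts of all 108 genes, 48.6% were in PEDF libraries (exact 95% interval 48.3% to 49.0%, for counting error only), beside 50.2% of the counts of all genes. This was set by Gm23935. Without it the share was 51.8%, and for the 59 Mir genes it was 50.0%. The share was 53.5% in experiment 1 (all genes 51.1%) and 43.5% in experiment 2 (all genes 49.5%), so the experiments lay on opposite sides of the all-gene share. Without Gm23935 the shares were 54.2% in experiment 1 and 49.4% in experiment 2, where the exact interval of 48.5% to 50.3% included the share of all genes. Gene by gene, 56 of the 108 had a larger share than all genes together and 52 a smaller one. The exact interval of the share, which covers counting error and not the spread between replicates, included the all-gene value for 91, lay above it for 5 and below it for 12. Of the 84 genes with 5 to 99 counts it lay above for 2 and below for 7, while these shares were 5.02% and 6% among all genes with as many counts. Of the 24 with at least 100 counts it lay above for 3 and below for 5, beside 21.9% and 13.7% of all such genes.

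**Figure D4:**
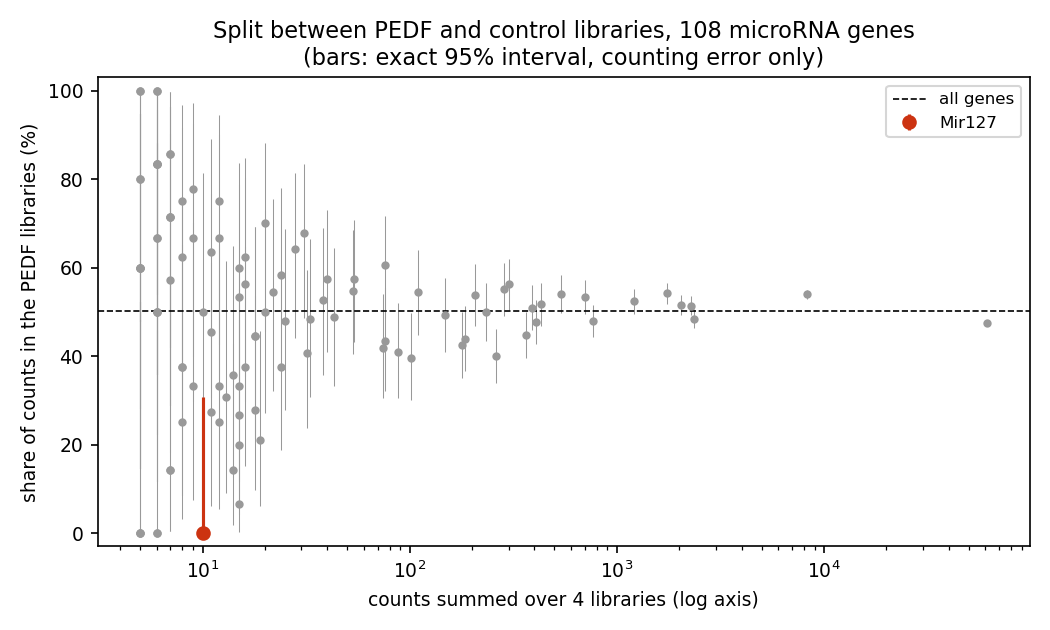
Share of each gene's counts found in the PEDF libraries (%) against its summed counts (log axis) for the 108 microRNA genes, with exact 95% intervals for counting error; the dashed line is the share over all genes, 50.2%. Shares spread from 0% to 100% among genes near 5 counts, where Mir127 (red, 0% of 10 counts) lies, and draw close to the line among genes with more counts.

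Of the 108 genes, 68 had at least 10 counts and were tested with edgeR's quasi-likelihood test, fitted over 19384 genes. An adjusted p under 0.05 was reached by 0 of the 68, against 0.00516% of all genes tested. The lowest adjusted p among them was 0.696. DESeq2, which gave 61 of the 68 no adjusted p, also called 0. An unadjusted p under 0.05 was reached by 2 of the 68, Mir127 and Gm44330, both lower with PEDF, against 6.88% of all genes in either direction and 3.66% lower. DESeq2 had 1 gene with an unadjusted p under 0.05. The log2 fold changes of the 68 were above 0 for 30 and below 0 for 38, with a median of -0.08, beside 0.00118 over all genes. This lean turned round with the genes that entered and with 1 library, to 56 above and 52 below 0 (median 0.05) among all 108 in the fit of genes with at least 5 counts, 18 and 15 (0.043) with edgeR's filterByExpr and 37 and 31 (0.034) without control 2. Both PEDF libraries were below both control libraries in CPM for 22 of the 108 and above both for 23. Among all genes with at least 5 counts these shares were 18.2% and 18.5%. In simulated libraries with the spread of these data, 6 of 31 genes with 10 to 49 counts that had been changed 4-fold reached an adjusted p under 0.05, and 50 of 56 with 50 to 399 counts did, so a 4-fold change in a gene with fewer than 50 counts would mostly not reach the threshold at this depth.

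Gm44330 (chr8:83929688-83929830, minus strand), a model over coding sequence of Adgrl1, an adhesion G protein-coupled receptor of the latrophilin type, had 75, 81, 56 and 48 counts. Both PEDF libraries were below both control libraries, at 4.81 ± 0.383 CPM in control and 3.15 ± 0.642 CPM in PEDF-treated MEFs (SD, n = 2). The log2 fold change was -0.61 ± 0.25 (SE), for which edgeR gave an unadjusted p of 0.0268 and an adjusted p of 0.696. The unadjusted p rose to 0.105 without control 1 and to 0.205 without PEDF 2. With the edgeR block the unadjusted p of Gm44330 was 0.00889 and its adjusted p was 0.130. In DESeq2, which left it without an adjusted p, the unadjusted p was 0.0976, and with the block it was 0.175. Adgrl1 itself changed by less, -0.08 ± 0.07 (SE) on the log2 scale, and the difference between the 2 genes was not tested. Gm44450, another model opposite Adgrl1 that lies partly over its coding sequence, had 31, 44, 33 and 40 counts, and its log2 fold change of -0.07 ± 0.32 (SE) was within the error.

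Fitting the experiment as a replicate block raised the number of genes called over the whole table to 726, or 3.75%, and 2 of the 68 microRNA genes were among them. At an unadjusted p under 0.05 the block fit had 6 of the 68, beside 14.6% of all genes. Gm23935 was lower with PEDF, at a log2 fold change of -0.21 ± 0.04 (SE) and an adjusted p of 9.98e-05 in the edgeR block fit, although it was higher with PEDF in experiment 1 and lower in experiment 2. Its adjusted p was 0.925 in the same fit when genes with at least 5 counts entered, and 0.792 in DESeq2 with the block. Gm22953 was higher with PEDF, at a log2 fold change of 0.19 ± 0.05 (SE) and an adjusted p of 0.0146 with the edgeR block. With the DESeq2 block 0 of the 68 had an unadjusted p under 0.05, and without the block Gm22953 had an adjusted p of 0.998 in DESeq2. It was higher in both experiments, by 0.29 and 0.09 on the log2 scale, and without PEDF 1 the unblocked log2 fold change was 0.029, while Serf2 on the other strand had a log2 fold change of 0.12 (adjusted p = 0.149 with the block), and of 0.0066 without PEDF 1, 0.063 without control 2 and 0.23 without PEDF 2 in the unblocked fits.

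Of the 108 hairpins, 89 lay in or over a tested gene outside the set, 83 different genes in all. Of these, 4 were higher and 3 lower with PEDF at an unadjusted p under 0.05, or 7 of 83 beside 6.88% of all genes, and 0 passed the adjusted threshold in edgeR with this filter. With no filter on low counts 1 of the 83 passed, Srrm2 (adjusted p = 0.00344 in edgeR), beside 0.405% of all genes. The 7 include Kctd8 (35, 29, 57 and 56 counts, log2 fold change 0.78) and the sparsely counted H2A genes H2ac10 (16, 4, 2 and 0 counts, -3.24) and H2ac6 (1, 7, 14 and 15 counts, 1.82). With the block, 3 were called higher and 2 lower, beside 3.75% of all genes. The 2 lower ones were Srrm2, a splicing scaffold protein that hosts Mir5125, with 5656, 8289, 4996 and 6276 counts and a log2 fold change of -0.33 ± 0.05 (SE), and Ep400, a chromatin remodeler that hosts Mir7026, with 1507, 1999, 1327 and 1577 counts and -0.30 ± 0.06 (SE). Their adjusted p was 1.78e-10 and 2.61e-05 with the edgeR block. For Srrm2 the unblocked log2 fold change was -0.19 without control 2 and -0.46 without control 1. The 3 higher ones were H2ax, Bcl7c and Nnat, an imprinted membrane protein gene opposite Gm23134, with 834, 773, 1014 and 921 counts, a log2 fold change of 0.23 ± 0.07 (SE) and an adjusted p of 0.0335 with the edgeR block. Without control 2 or PEDF 1 the unblocked log2 fold change of Nnat was 0.046 and 0.054, and that of H2ac10 was -1.77 without control 1. DESeq2 with the block called 1 of the 83, Srrm2 (adjusted p = 0.000123), beside 0.604% of all genes. H2ax had 164, 158, 187 and 177 CPM in control 1, control 2, PEDF 1 and PEDF 2, or 0.18 ± 0.07 (SE) as a log2 fold change, and Bcl7c had 69.9, 63.7, 81.9 and 72.2 CPM, or 0.21 ± 0.09 (SE). The unblocked value for Bcl7c was 0.11 without PEDF 1 and 0.14 without control 2. The adjusted p from edgeR was 0.696 for both without the block, and 0.0196 and 0.035 with it. In DESeq2 with the block, H2ax had an adjusted p of 0.218 and Bcl7c had none. Their opposite-strand hairpins had log2 fold changes of 0.05 ± 0.11 (SE) for Gm44335 and 0.10 ± 0.16 (SE) for Mir762, whose adjusted p was 0.878 and 0.797 with the block. That H2ax and Bcl7c differ from these hairpins was not tested.

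Mir127 (ENSMUSG00000070076, chr12:109592846-109592915, plus strand) lies wholly within coding sequence of Rtl1 on the opposite strand. Rtl1 is a retrotransposon-derived imprinted gene expressed from the paternal chromosome, and the hairpins across it belong to a maternal antisense transcript. Mir127 had 6 and 4 counts in control MEFs and 0 and 0 in PEDF-treated MEFs. With 3 counts over both PEDF libraries taken as the limit in place of 0, the level was 3.41-fold lower than in control MEFs. This ratio takes the 10 control counts as exact and leaves out their counting error, so it is not a lower bound. The exact interval of the PEDF share of these 10 counts, which covers counting error only, reached up to 30.8%. For this gene edgeR gave an unadjusted p of 0.0111 and an adjusted p of 0.696, or an adjusted p of 0.137 with the replicate block. All 10 counts came from control MEFs, so Mir127 reached the minimum of 10 counts for the test through the group in which it is high. As it was also chosen for this pattern, its p and the 3.41-fold ratio are given as a description. Rtl1 had 52, 85, 52 and 69 counts, which differed by less than their spread (log2 fold change -0.20 ± 0.25, SE).

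Counts on 1 side alone were not limited to Mir127. In 6 of the 108 both PEDF libraries were at 0, and in 4 both control libraries were. Mir1957a (3 and 3 counts in control), Mir7089 (5 and 1), Gm22121 (4 and 1), Mir10a (2 and 3), a hairpin of the Hoxb cluster, and Mir6403 (0 and 5) had counts in control MEFs alone. Mir194-1 (4 and 2 counts with PEDF), Mir199a-1 (3 and 3), Gm44460 (1 and 4) and Mir669n (5 and 0) had counts in PEDF-treated MEFs alone. All 10 had 10 counts or fewer, and of the 42 genes described here with 5 to 10 counts they are 10, while 10% of all genes with 5 to 10 counts had none in both libraries of a group. Apart from Mir127, these genes had 5 or 6 counts in all, below the minimum of 10, and in the edgeR fit of genes with at least 5 counts 0 of the 10 passed an adjusted p of 0.05, with or without the block. As genes enter with 5 counts from any library, such a gene can be kept by the group in which it was counted.

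Between Dlk1 and Dio3, 67 microRNA genes are annotated on chromosome 12, of which 20 had counts and 8 had at least 5. Mir433 had 3, 5, 3 and 1 counts in control 1, control 2, PEDF 1 and PEDF 2, and Mir434 had 0, 1, 4 and 2. These are the neighbors of Mir127 over Rtl1, on either side. Mir433 had the same count in both libraries of experiment 1, and both PEDF libraries were the higher ones for Mir434. Mir409 had 4, 2, 1 and 1 counts, and Gm24321, a model on the other strand over the same bases, had 2, 10, 2 and 1. Mir541 had 1, 2, 1 and 2, Mir369 had 0, 1, 1 and 4, and Mir3072 had 3, 5, 0 and 3. All 67 genes together had 26, 34, 19 and 20 counts. The 8 described here had 49 counts in control and 26 in PEDF libraries. Of the 49, Mir127 supplied 10 and Gm24321 another 12, most of them in control 2. The remaining 6, all on the strand of Mir127, had 27 counts in control and 23 in PEDF libraries. Meg3, the long maternal transcript on the same strand that starts before Mir127, was lower with PEDF in both experiments, with 513, 658, 352 and 493 CPM in control 1, control 2, PEDF 1 and PEDF 2, and passed the adjusted threshold with the replicate block alone among the edgeR fits of all 4 libraries. No tested microRNA gene of the region passed an adjusted p of 0.05 in edgeR, with or without the block.

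**Figure D5:**
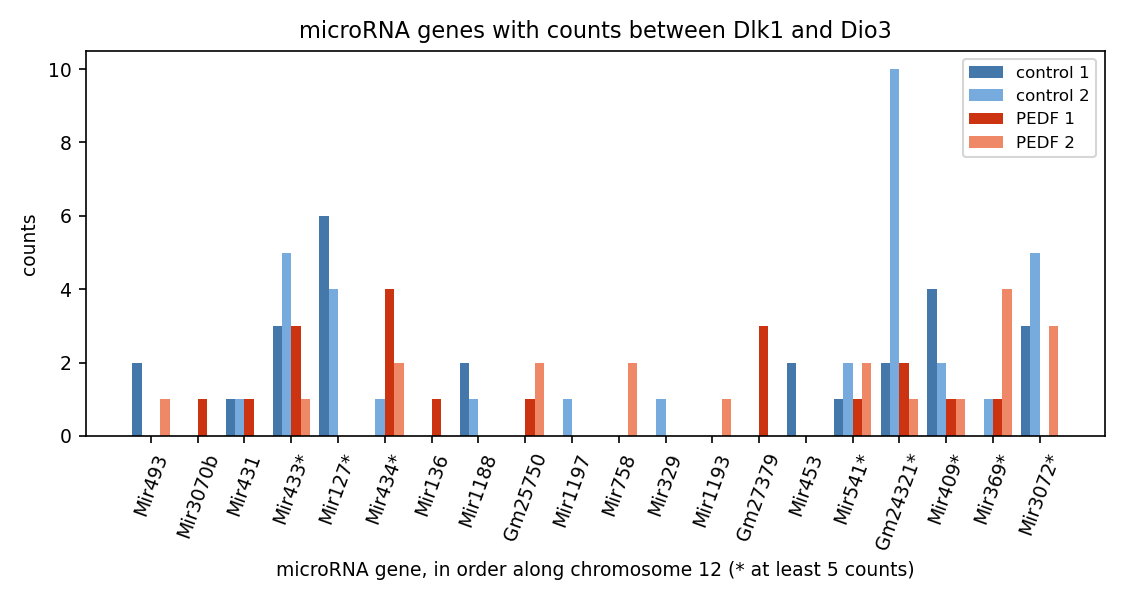
Counts in each of the 4 libraries for the 20 microRNA genes with counts between Dlk1 and Dio3, in their order along chromosome 12, with an asterisk at genes with at least 5 counts. Mir127 has 6 and 4 counts in control and none with PEDF, no gene exceeds 10 counts in a library, and the tallest bar is Gm24321 in control 2.

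In 4 pairs of hairpins on opposite strands of the same bases, the counts could be set side by side by strand. Mir24-1 and Mir24-2, which encode the cell cycle regulator miR-24, lie in same-strand exons and had 0 counts. Mir3074-1 and Mir3074-2, on the other strand over them, had 26, 35, 14 and 26 and 5, 6, 0 and 4 counts. Mir191 had 0 counts and Gm24083 on its other strand had 8. In the pair of Mir409 and Gm24321, where neither lies in a longer same-strand exon, both strands were counted, with 8 and 15.

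Hairpins outside other genes are those whose reads have no annotated host. Mir196a-1 (chr11:96265164-96265265, plus strand), in the Hoxb cluster, encodes miR-196a, which targets Hox messenger RNAs, and had 14, 38, 13 and 23 counts. Control 1 was close to PEDF 1 and control 2 above PEDF 2, and the groups overlapped at 0.948, 2.13, 0.836 and 1.29 CPM. On the X chromosome, Mir351 (28, 15, 18 and 15 counts), Mir503 (5, 1, 1 and 8) and Mir322 (10, 2, 1 and 1) lie within about a kilobase on the minus strand. miR-322 and miR-503 belong to the miR-15 family, which restrains the cell cycle. Mir322 had 10 of its 14 counts in control 1, and its log2 fold change was -2.52 ± 1.24 (SE), for which edgeR gave an adjusted p of 0.733. It lay between -3.34 and -0.83 when 1 library was left out. Mir143 and Mir145a, a pair known from smooth muscle and myofibroblasts, had 0, 2, 3 and 0 and 1, 9, 2 and 4 counts. Mir23a had 0, 1, 2 and 3. No direction was shared by these 3 hairpins.

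The long transcripts that host microRNAs were counted where many of the hairpins were not. Of 25 such genes listed in the file, 24 were tested and 0 passed an adjusted p of 0.05 in edgeR, while 18 had a log2 fold change below 0, as did 49.8% of all genes tested. The median was -0.10, beside 0.00118 over all genes. Mir155hg, host of the inflammation-linked miR-155, had 7, 25, 1 and 6 counts and was the 1 gene of the list with an unadjusted p under 0.05 (log2 fold change -2.16, and between -3.74 and -1.17 with 1 library left out, unadjusted p of 0.016 and adjusted p of 0.696 in edgeR). With the replicate block, 3 of the 24 had an adjusted p under 0.05, all lower with PEDF, beside 3.75% of all genes. They were Meg3, Dnm3os, and Mir100hg, the host of miR-100, let-7a-2 and miR-125b-1. Meg3 had 7576, 11738, 5479 and 8792 counts and a log2 fold change of -0.48 ± 0.04 (SE) with the block, and of -0.47 ± 0.25 (SE) without it, where its adjusted p was 0.781 in edgeR. Without the block the value was -0.25 without PEDF 1, -0.28 without control 2 and -0.73 without PEDF 2, and only the last of the 4 fits with 1 library left out passed the threshold (adjusted p = 7.19e-06 in edgeR). In the same way Dnm3os lay between -0.64 (without PEDF 2) and -0.099 (without control 2), and Mir100hg between -0.80 and -0.25 in these same fits. Dnm3os had 2355, 4053, 1935 and 3085 counts, and Mir100hg had 1277, 2199, 938 and 1521. In all 3 genes the libraries of experiment 2 were above those of experiment 1 within each group, and each PEDF library was below the control library of its experiment. Mir214, Mir199a-2 and Mir125b-1 within same-strand exons had no counts, so no change of a hairpin could be set beside these.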

How the data were processed

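Polyadenylated RNA was sequenced in 4 libraries. Per the labels' processing notes and the study's methods, the authors trimmed reads with Trimmomatic 0.38, aligned them to mm10 with HISAT2 2.1.0 and counted them per gene with featureCounts 1.6.3. The deposited values are raw counts per gene, and a deposited TPM table was used for levels per length. The annotation and strand setting are not given in the sources used here. Every row names a gene. In R 4.3.3, edgeR 4.0.16 was applied to genes with at least 10 counts, with TMM factors, the robust quasi-likelihood test and Benjamini-Hochberg adjustment over all genes. Standard errors are the absolute log2 fold change over the square root of F. A count of 3 corresponds to 0.168 to 0.203 CPM per library. Hairpins were placed by GENCODE M21. Named genes of the 108 were Mir127, genes called in the main or blocked fit or with an unadjusted p under 0.05, the 12 with the most counts, those between Dlk1 and Dio3, those at 0 in a group, those on the microRNA lists, and the genes overlapping these. Other listed microRNAs and long host transcripts were named from their lists. Mir322, Mir503, Mir351, Mir34b, Gm44297, Gm44450, Gm24187, Gm24245, Mir191, Gm24083, Mir3074-1, Mir3074-2, Mir130b, Mir130c, Srrm2, Ep400, Nnat, Mir5125, Mir7026, Gm23134, Kctd8, H2ac10 and H2ac6 were named after their values were seen. The genes and lists were chosen with earlier results of these data known. Libraries of an experiment share embryos per the labels, and the difference between experiments in control libraries correlated with that in PEDF libraries (r = 0.423 across 10722 genes whose mean log2 CPM exceeded 3). The methods were tested on simulated data. Alternatives were RLE factors, other filters, the block, DESeq2 1.42.0 and leaving out each library.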

Additional observations from a re-analysis of the deposited data

How the results depend on the processing

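The number of microRNA genes with an unadjusted p under 0.05 was 2 (6.88% of all genes tested), and it was 4 with genes of at least 5 counts (all 108 tested; 6.86% of all genes), 5 with no filter (6.58%), 1 with filterByExpr, which left 33 genes (7.2%), 6 with the replicate block (14.6%), 1 with DESeq2 (2.14%), 0 with DESeq2 and the block (2.33%), and 4 with the block and genes of at least 5 counts (13.4%), a setting chosen after seeing the data. It was 3 to 6 when 1 library was left out. The number with an adjusted p under 0.05 was 0, and it was 2 with the replicate block (3.75% of all genes) and 1 with the block and at least 5 counts (3.59%). The same number was also taken among the genes of the 108 that were named by rule and the genes overlapping these, which leaves out Meg3, Dnm3os and Mir100hg. There it was 0 (0.00516% of all genes), 4 with the replicate block (3.75%) and 4 with the block and at least 5 counts (3.59%). Where no cause is given, the cause was not tested. For Mir127 the adjusted p lay between 0.137 and 0.999 over the alternatives that gave one. DESeq2 gave none, and its unadjusted p was 0.0305 without and 0.0782 with the block. The gene did not pass filterByExpr. Leaving out 1 library moved the log2 fold change from -0.57 (without PEDF replicate 1) to 0.16 (without PEDF replicate 2) for Gm23935, from -0.55 to 0.25 for Gm24270, from -0.11 to 0.20 for Gm44335, from -0.12 to 0.30 for Mir762 and from -0.40 to 0.037 for Rtl1, so the sign of none of these 5 rests on all libraries. The share of counts in PEDF libraries was 48.6%, and it was 51.8% without Gm23935, 53.5% in experiment 1 and 43.5% in experiment 2. Without a library, that group's other library is a lone sample assumed to vary like the other group. With a median of 15 counts per gene, depth limits what can be seen in most of these genes.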
